A study of Cavia porcellus with 35 samples.

Results

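The serotonin receptors are the cell-surface proteins through which serotonin acts on neurons. The receptors examined were the 10 genes HTR1A, HTR1B, HTR1D, HTR1F, HTR2A, HTR2C, HTR3A, HTR4, HTR5A and HTR7, chosen by symbol and looked up without regard to letter case. Of these 10 genes, 8 were listed in at least 1 of the 4 count tables, out of 12100 symbols in at least 1 table. HTR1A, HTR1B, HTR2A, HTR2C, HTR4, HTR5A and HTR7 were listed in all 4 tables, HTR3A in the table of the F1 males only, and HTR1D and HTR1F are not analysed here. All 7 receptors listed in every table passed the filter on low counts in every table, and HTR3A did not pass it.

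The study sequenced messenger RNA from micropunches of the medial prefrontal cortex (mPFC; cingulate area 1 and infralimbic cortex of the right hemisphere) of juvenile guinea pigs (Cavia porcellus) at postnatal day 40. In the sGC group, the pregnant founder mother of the line had been given the synthetic glucocorticoid betamethasone late in gestation, and in the control group she had been given saline. F1 animals were the offspring of these mothers, whereas F2 and F3 females descended from them through F1 and F2 males mated with females from outside the experiment. There were 4 control and 4 sGC females in each of F1, F2 and F3, and 5 control and 6 sGC F1 males, with 1 library per animal and 35 animals in all. The female groups held 1 animal per litter, and the same is not stated for the males in the sources used here.

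Serotonin reaches the cortex along axons of the raphe nuclei of the brainstem, so the enzymes that make it are little expressed in cortical tissue, while its receptors are made by the cortical cells themselves. HTR1A, HTR1B and HTR5A encode receptors that couple to Gi/o proteins, which lower cyclic AMP and, for HTR1A, open GIRK potassium channels. HTR2A and HTR2C couple to Gq/11 proteins and phospholipase C beta, HTR4 and HTR7 couple to Gs proteins and raise cyclic AMP, and HTR3A encodes a subunit of a ligand-gated cation channel. Cortical receptors are spread unevenly over cell types and layers, so a level measured in a punch depends on which cells the punch held.

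Library totals ranged from 12819964 to 31763585 counts, with the 11 male libraries at 25697953 counts or more and the 24 female libraries at 19551079 or fewer. The label of the dissected tissue is prefrontal cortex, while the extraction text of the labels names the paraventricular nucleus. Of 5 markers of that nucleus, 3 were listed (SIM1, AVP and OXT), and their summed level was 6.58 to 17.9 CPM (read counts scaled to the size of the library) in all 35 animals, against 204.7 to 4338 CPM for the 4 listed of 5 markers of cortical glutamatergic neurons. Markers of striatal neurons stood high in some female libraries. With 9 of 11 such markers listed in the F1 females, their sum was 2947, 670, 1028 and 2741 CPM in controls 1 to 4 and 307 to 711 CPM in the sGC females. In the F3 females, with 9 listed, it was 397, 783, 1222 and 617 CPM in the controls and 259 to 568 CPM in the sGC animals. It was 167 to 286 CPM in every F2 female (7 listed) and 167 to 205 CPM in every F1 male (8 listed). The glutamatergic markers moved the other way in the F1 females, at 1190, 385, 205 and 287 CPM in controls 1 to 4 against 1058 to 4338 CPM in the sGC females. In the F3 females their sum was 582 to 986 CPM in the controls and 1133 to 1406 CPM in the sGC animals, without overlap. It was 1653 to 1958 CPM in the F2 females and 1630 to 1954 CPM in the F1 males, where the groups overlapped. F1 female controls 1 and 4, the libraries highest in striatal markers, are therefore kept in the main comparison and also left out together below. In such bulk tissue, fewer cells of a type and less RNA per cell cannot be told apart.

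Receptor levels are CPM after TMM normalisation within each table. The tables were scaled separately, so the test of treatment was made within a table, and levels are not compared between genes because no transcript lengths were used. Differences are log2 fold changes of sGC minus control from the edgeR quasi-likelihood test, with the false discovery rate (FDR) taken over all genes tested in the table. Among the F1 females, 0 of 7 receptors passed an FDR of 0.05, where 16.5% of all 11268 genes tested did. The likelihood ratio test called HTR1A and HTR2A in these animals, and DESeq2 called HTR2C as well. At an unadjusted p under 0.05 there were 3 of 7, against 34.2% of all genes. For the F2 females, 1 of 7 passed (HTR7, lower), against 0.278% of all genes in either direction and 0.126% lower. At the unadjusted threshold there were 4 of 7 (16.1% of all genes). In the F3 females 0 of 7 passed (1.34% of all genes), with 2 called by the likelihood ratio test and by DESeq2 (HTR1B and HTR4, both lower), and 4 of 7 had an unadjusted p under 0.05 (17.3% of all genes). In the F1 males 3 of 7 passed (HTR1B, HTR4 and HTR5A), all lower in sGC, against 9.22% of all genes in either direction and 3.48% lower. All these shares belong to the quasi-likelihood test. The shares of all genes called by the likelihood ratio test and by DESeq2 are not reported here, so their receptor calls have no share beside them.

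The median log2 fold change of the 7 receptors was 0.48 in F1 females, 0.10 in F2 females, 0.08 in F3 females and −0.35 in F1 males. Over all genes tested the corresponding medians were −0.03, 0.01, −0.01 and −0.00. The F1 female median is the value of HTR7, which was 0.095 without sGC animal 3. In the males all 7 receptors had a negative fold change, and in the females of each generation both signs occurred.

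**Figure D1:**
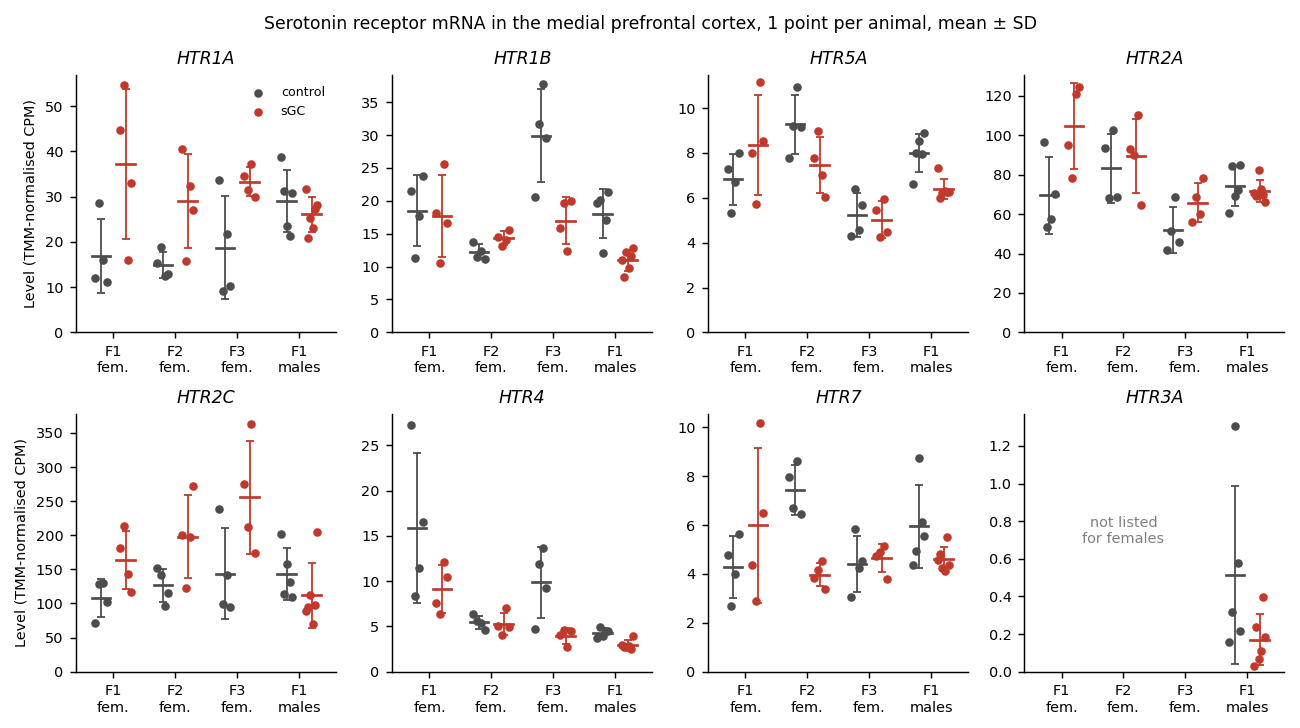
Level of each serotonin receptor (TMM-normalised CPM, y axis) in every animal, by table on the x axis. Grey points are controls, red points sGC animals, horizontal lines and bars the mean ± SD of 4 to 6 animals. HTR7 is lower in all 4 F2 sGC females than in any F2 control, and HTR1B and HTR4 are lower in all 4 F3 sGC females than in any F3 control.

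HTR1A encodes the inhibitory receptor that serves as the autoreceptor of raphe neurons and, in the cortex, sits on pyramidal neurons and some interneurons. In the F1 females its level was 12.1, 28.7, 15.9 and 11.04 CPM in the controls and 44.8, 54.6, 16.1 and 33.1 CPM in the sGC animals. Of the 4 sGC females, 3 stood above every control and 1 lay among them. The log2 fold change was 1.14 (SE 0.40, 95% confidence interval 0.23 to 2.05, FDR = 0.0829). The F2 females had 15.3, 18.9, 12.4 and 13.0 CPM as controls and 40.6, 15.8, 32.4 and 27.2 CPM after sGC, again with 3 of 4 sGC animals above the controls (log2 fold change 0.96, SE 0.24, FDR = 0.0881). In the F3 females the 4 sGC animals lay close together, at 34.5, 31.6, 37.3 and 29.9 CPM, while the controls fell apart into 33.6 and 21.8 CPM for controls 1 and 3 and 9.25 and 10.2 CPM for controls 2 and 4. The F3 difference was 0.82 (SE 0.35, FDR = 0.268). F1 males had 21.4 to 38.7 CPM as controls (median 30.7) and 20.9 to 31.7 CPM after sGC (median 26.2), with a log2 fold change of −0.16 (SE 0.14, FDR = 0.548).

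HTR1A thus had the largest positive estimate of the 7 receptors in F1 and in F2 females without passing the threshold in the quasi-likelihood test. Its call turned on the method and on single animals. The likelihood ratio test gave FDR = 0.0323 in F1 and 0.00536 in F2 females, and DESeq2 gave 0.0161 and 0.00336. Without control 2 or sGC animal 3, the F1 value was 1.52 (FDR = 0.0406) and 1.39 (FDR = 0.036). Without sGC animal 2 the F2 value was 1.16 (FDR = 0.00539), and without control 1 the F3 value was 1.28 (FDR = 0.0257). Leaving out F1 controls 1 and 4 together gave 0.76 (FDR = 0.291). The mean sum of the 8 listed deep layer markers was 615 CPM in F1 control and 870 CPM in F1 sGC females. It was 642 and 820 CPM in F2 females, 595 and 773 CPM in F3 females and 768 and 730 CPM in F1 males. HTR1A had r = 0.86, 0.95, 0.96 and 0.81 with this sum in these tables, group means removed. With the glutamatergic sum it had r = 0.02, 0.66, 0.94 and 0.80. The part of both lists in the HTR1A differences was not tested.

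HTR1B encodes an inhibitory receptor of axon terminals, where it limits the release of serotonin, glutamate and GABA. In the F1 males it was 19.7, 20.1, 12.1, 17.0 and 21.3 CPM in the controls and 11.01, 8.43, 12.2, 9.75, 11.6 and 12.8 CPM in the sGC animals. Control 3 was the only control among the sGC values. HTR1B fell by 0.72 on the log2 scale (SE 0.14, 95% confidence interval −1.02 to −0.42, FDR = 0.00825), and it passed the threshold in all 11 fits that left out 1 male and in all 8 other settings tried. The F3 females showed 20.6, 31.7, 37.7 and 29.6 CPM in the controls against 15.9, 19.7, 12.4 and 19.97 CPM in the sGC animals, with no overlap between groups. That difference was −0.81 (SE 0.20, FDR = 0.0743); it passed by the likelihood ratio test (FDR = 0.00323), by DESeq2 (FDR = 0.00236) and without control 1 (−0.95, FDR = 0.0122). The striatal neuron markers (397 to 1222 CPM in F3 controls, 259 to 568 CPM in F3 sGC animals) and the 3 pan-GABA markers (413 to 595 CPM and 330 to 415 CPM) stood lower in sGC as well, with 0 of 9 and 0 of 3 past the FDR threshold and 6 and 3 at an unadjusted p under 0.05. Over all genes the shares at these thresholds were 1.34% and 17.3%. Within the 8 F3 females, HTR1B had r = 0.97 with the striatal and 0.86 with the pan-GABA sum, group means removed, and their part in the difference was not tested. F2 females ran the other way in sign, from 11.2 to 13.7 CPM in the controls to 13.1 to 15.5 CPM in the sGC animals (0.23, SE 0.10, FDR = 0.301). For the F1 females the groups lay over each other, at 11.3 to 23.7 and 10.5 to 25.5 CPM (−0.07, SE 0.29, FDR = 0.885). The F3 controls (29.9 ± 7.09 CPM, SD, n = 4) had the highest mean HTR1B of the control groups and the F2 controls the lowest (12.2 ± 1.14), and the F1 female and F1 male controls between them (18.5 ± 5.44 and 18.1 ± 3.67) differed by less than their spread. These tables were scaled separately, and the control means were not tested against each other. The striatal sum was 397 to 1222 CPM in the F3 and 188 to 239 CPM in the F2 controls, with 9 and 7 markers listed. It was 670 to 2947 CPM in the F1 female and 167 to 205 CPM in the F1 male controls, with 9 and 8 listed. The part of these markers in the control means was not tested.

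HTR5A encodes a further Gi/o-coupled receptor, found mainly in the brain. It was 6.63, 7.98, 8.51, 7.95 and 8.87 CPM in control F1 males and 7.31, 6.01, 6.21, 6.32, 6.24 and 6.28 CPM in sGC males. sGC male 1 was the only sGC animal above the lowest control. HTR5A fell by 0.32 (SE 0.09, FDR = 0.0375), a small and fragile difference. The FDR was 0.0618 to 0.0913 when any 1 of controls 2, 3, 4 and 5 or sGC animals 2, 3, 4 and 5 was left out, under 0.05 in the other 3 such fits, and 0.13 when all 8 groups were fitted together. In the females the log2 fold changes were 0.29 (F1, FDR = 0.354), −0.31 (F2, FDR = 0.334) and −0.06 (F3, FDR = 0.898), over levels of 4.25 to 11.1 CPM.

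HTR2A encodes the excitatory receptor of pyramidal-cell dendrites that is bound by many antipsychotic drugs. Its F1 female controls had 96.5, 53.5, 57.6 and 70.3 CPM and the sGC females 94.9, 78.3, 121 and 124 CPM. Control 1, one of the libraries highest in striatal markers, was the only control within the sGC range. The log2 fold change was 0.59 (SE 0.21, 95% confidence interval 0.12 to 1.06, FDR = 0.0825). It became 0.81 (FDR = 0.02) without control 1 and 0.94 (FDR = 0.0246) without controls 1 and 4 together. Within the 8 F1 females, HTR2A had r = 0.64 with the glutamatergic sum and 0.99 with the summed markers of upper cortical layers, group means removed. The glutamatergic sum was 205 to 1190 CPM in the controls and 1058 to 4338 CPM in the sGC females. The part of both lists in the HTR2A difference was not tested. That difference also passed by the likelihood ratio test (FDR = 0.0381) and by DESeq2 (FDR = 0.0267). F2 females (64.5 to 110 CPM), F3 females (41.9 to 78.4 CPM) and F1 males (60.8 to 84.7 CPM) had log2 fold changes of 0.10 (FDR = 0.814), 0.34 (FDR = 0.298) and −0.05 (FDR = 0.78). The 95% confidence interval in the males, −0.23 to 0.13, was the narrowest of any receptor in any table.

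HTR2C encodes a Gq/11-coupled receptor whose transcript is edited by adenosine deaminases and which is very abundant in the choroid plexus. In all 3 generations of females its estimate was positive: 0.60 in F1 (SE 0.23, FDR = 0.0978), 0.65 in F2 (SE 0.21, FDR = 0.161) and 0.83 in F3 (SE 0.31, FDR = 0.216). F1 females had 70.9, 129, 130 and 101 CPM as controls and 181, 213, 143 and 117 CPM after sGC. F2 controls had 152, 141, 96.9 and 116 CPM against 200, 123, 197 and 272 CPM. F3 controls had 238, 99.3, 141 and 94.8 CPM against 275, 212, 363 and 174 CPM. Of the 4 sGC females, 3 lay above every control in F1 and in F2, and 2 did so in F3. DESeq2 called it in F1 (FDR = 0.032) and the likelihood ratio test in F2 (FDR = 0.0445), and it passed in F2 without sGC animal 2 (0.82, FDR = 0.0138) and in F3 without control 1 (1.19, FDR = 0.0276). In the F1 males the estimate was −0.35 (SE 0.24, FDR = 0.403). The controls had 109 to 201 CPM, and 5 of the sGC males had 70.2 to 112 CPM while sGC male 6 had 205 CPM, the highest of the 11 males. Without that animal the difference was −0.61 (FDR = 0.0282). Of 7 choroid plexus markers only KL and FOLR1 were listed, with a sum of 10.3 to 25.5 CPM over all 35 animals, and TTR was not among the listed genes. Over the animals the HTR2C deviations had r = −0.31 with that sum (within-group permutation p = 0.099). With the glutamatergic sum they had r = −0.75, 0.09 and 0.85 within F1, F2 and F3 females and −0.18 in the F1 males. The glutamatergic sum was higher in every F3 sGC female than in any F3 control. Its part in the HTR2C differences was not tested.

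HTR4 encodes a Gs-coupled receptor that is strongly expressed in the basal ganglia and more weakly in cortex. In the F1 males it was 3.70, 4.95, 3.99, 4.45 and 4.49 CPM in the controls and 2.99, 2.69, 2.76, 2.88, 2.47 and 3.98 CPM in the sGC animals. Apart from sGC male 6, every sGC male lay below every control. HTR4 fell by 0.55 (SE 0.13, FDR = 0.0202), resting on 68 to 141 counts per animal, and the FDR was 0.0502 without control 4, under 0.05 in the other 10 such fits and 0.184 when all 8 groups were fitted together. The F3 females had 4.66, 11.9, 13.7 and 9.28 CPM as controls and 4.10, 4.56, 2.70 and 4.54 CPM after sGC, without overlap but with control 1 just above the sGC values. The difference was −1.30 (SE 0.31, 95% confidence interval −1.9997 to −0.60, FDR = 0.0714), and it passed by the likelihood ratio test (FDR = 0.00243), by DESeq2 (FDR = 0.0015) and without control 1 (−1.54, FDR = 0.00619). In F1 females the controls had 27.3, 8.37, 11.5 and 16.6 CPM and the sGC animals 7.62, 6.34, 12.1 and 10.4 CPM (−0.81, SE 0.36, FDR = 0.146). The highest controls, 1 and 4, were the libraries highest in striatal markers, and without them the difference was −0.10 (FDR = 0.832). The striatal markers thus moved with HTR4 in F1 and F3 females, and their part in those differences was not tested. In the males these markers were at 167 to 205 CPM in the controls and 179 to 205 CPM in the sGC animals. Of the 8 listed there, 5 had a positive fold change and 0 passed the FDR threshold (9.22% of all genes did). Their part in the male difference was not tested. F2 females had 4.07 to 7.01 CPM with no separation (−0.05, SE 0.18, FDR = 0.914).

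HTR7 encodes a Gs-coupled receptor known for roles in circadian timing, sleep and mood. In the F2 females it was 7.97, 6.68, 8.61 and 6.45 CPM in the controls and 3.83, 4.15, 4.51 and 3.39 CPM in the sGC animals, so that the lowest control stood clearly above the highest sGC animal. HTR7 fell by 0.90 (SE 0.15, 95% confidence interval −1.23 to −0.57, FDR = 0.0443), which is 0.536 times the control level, on 45 to 112 counts per animal. It ranked 17th by p among 11132 genes. No other receptor passed in the F2 females by this test. With so few genes called in that table the FDR lay near its threshold. Leaving out control 2, 3 or 4 gave FDR = 0.0995, 0.167 and 0.139, and leaving out sGC animal 1, 3 or 4 gave 0.148, 0.113 and 0.0769, while the estimate stayed between −0.97 and −0.83. A single fit of all 8 groups gave FDR = 0.0888. In the other tables HTR7 was 2.70 to 5.65 against 2.89 to 10.2 CPM in F1 females (0.48, SE 0.38, FDR = 0.398, and 0.095 without sGC animal 3), 3.05 to 5.86 against 3.80 to 5.12 CPM in F3 females (0.08, SE 0.20, FDR = 0.879) and 4.37 to 8.76 against 4.14 to 5.51 CPM in F1 males (−0.37, SE 0.16, FDR = 0.167). The control mean was highest in F2 females (7.43 ± 1.03 CPM, SD, n = 4) and the F2 sGC mean (3.97 ± 0.476) was the lowest of the 8 groups, with the F1 and F3 control females (4.29 ± 1.25 and 4.41 ± 1.15) within their spread of it. The tables were scaled separately, and these means were not tested against each other.

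Markers of upper cortical layers, like HTR7, stood lower in the F2 sGC females. All 6 such markers were listed, and their sum was 901 to 1159 CPM in the controls and 584 to 816 CPM in the sGC females. The sum of the 8 listed of 11 markers of interneurons from the caudal ganglionic eminence (CGE) was 772 to 832 CPM against 642 to 713 CPM. Neither sum overlapped between the groups. The 7 listed oligodendrocyte markers summed to 3212 to 4990 CPM in the controls and 4765 to 11189 CPM in the sGC females, and the 8 listed deep layer markers to 578 to 698 CPM and 614 to 921 CPM. All members of both lists had positive fold changes, of which 0 passed the FDR threshold and 6 of 7 and 5 of 8 had an unadjusted p under 0.05. Over all genes of that table, 0.278% passed the FDR threshold and 16.1% had an unadjusted p under 0.05. Within the F2 females, HTR7 had r = 0.33 with the upper layer and 0.38 with the CGE sum, group means removed. With the oligodendrocyte and deep layer sums it had r = 0.22 and −0.15. The part of these 4 lists in the HTR7 difference was not tested. In the F1 males, where HTR1B, HTR4 and HTR5A fell, all 7 listed of 9 oligodendrocyte markers rose, with a sum of 3483 to 6615 CPM in the controls and 7415 to 12707 CPM in the sGC animals. All 7 passed the FDR threshold, which 9.22% of all genes did in either direction. The upper layer markers summed to 742 to 1351 CPM in control and 675 to 778 CPM in sGC males, with 1 of 6 called lower and a median log2 fold change of −0.61. The 9 listed CGE markers summed to 497 to 679 CPM and 460 to 563 CPM, with 2 of 9 called lower and a median of −0.46. Over all genes tested in the males, 3.48% were called lower. Within the 11 males, HTR1B had r = 0.75 with the oligodendrocyte, −0.75 with the upper layer and −0.66 with the CGE sum, group means removed. In the same order, HTR4 had r = −0.04, 0.03 and −0.14, and HTR5A had 0.03, 0.41 and 0.56. The part of these 3 lists in the receptor differences was not tested.

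HTR3A, the only channel subunit among these receptors, is typical of cortical interneurons from the CGE. It was listed for the F1 males alone, with 4 to 37 counts in the controls and 1 to 11 counts in the sGC animals, or 0.156, 0.316, 1.31, 0.578 and 0.214 CPM against 0.0322, 0.235, 0.065, 0.111, 0.399 and 0.182 CPM. Control 3 had the highest value. The means of 0.514 and 0.171 CPM differed with p = 0.0952 in a two-sided exact permutation test over 462 assignments of the 11 males.

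Groups that did not overlap were counted as well. In the F1 females this held for 0 of 7 receptors, against 23.2% of all genes (11.2% lower). It held for HTR7 in the F2 females (8.09% of all genes, 4.02% lower), for HTR1B and HTR4 in the F3 females (10.3%, and 4.35% lower) and for 0 of 7 in the F1 males (6.26%).

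**Figure D2:**
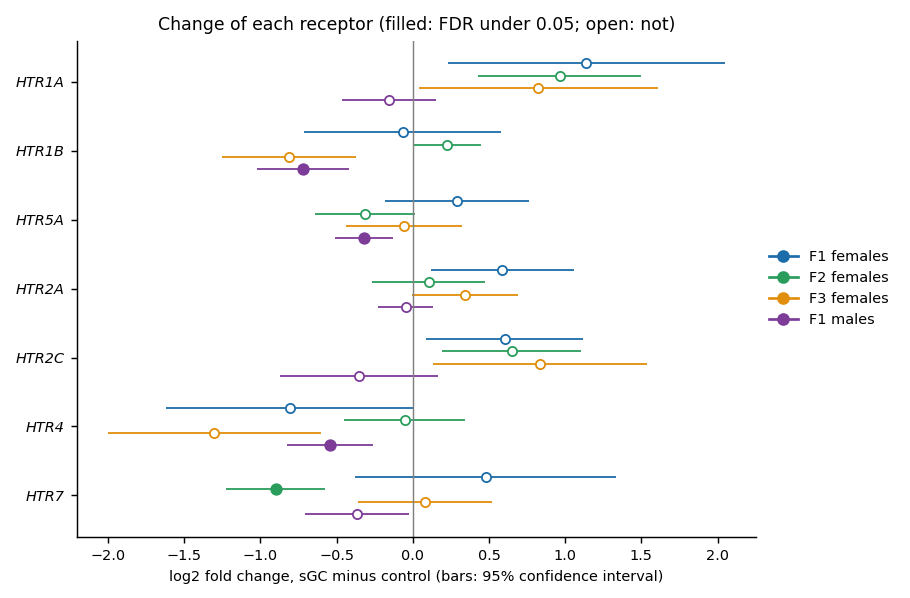
Log2 fold change of sGC minus control (x axis) for each receptor (y axis) in the 4 tables, with 95% confidence intervals from the quasi-likelihood fit. Filled points passed an FDR of 0.05, namely HTR7 in F2 females and HTR1B, HTR4 and HTR5A in F1 males. HTR1A, HTR2A and HTR2C lie to the right in F1 females and at or left of 0 in F1 males.

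The sex and generation comparisons asked whether the response itself differed. F1 females and males differed in response for 3 of 7 receptors, where 31.7% of 11274 genes did. The male minus female difference in log2 fold change was −1.31 for HTR1A (SE 0.40, FDR = 0.0189), −0.64 for HTR2A (SE 0.22, FDR = 0.0302) and −0.62 for HTR5A (SE 0.21, FDR = 0.0288). For HTR1A and HTR2A the separation came from higher estimates in the females, and for HTR5A the estimates had opposite signs. HTR2C (−0.97, FDR = 0.0559), HTR7 (−0.85, FDR = 0.102), HTR1B (−0.66, FDR = 0.118) and HTR4 (0.26, FDR = 0.624) missed the threshold. When F1 female controls 1 and 4 were left out, the HTR1A difference was −0.91 (FDR = 0.115), and HTR2A (−0.97, FDR = 0.00116) and HTR5A (−0.81, FDR = 0.0141) still passed, with HTR1B added (−1.02, FDR = 0.031). HTR1A passed in all 19 fits that left out 1 animal. HTR2A lost the call without F1 female control 2 or 3, sGC female 3 or 4, or control male 2 or 5 (FDR = 0.0518 to 0.0708), and HTR5A without F1 female control 2 or 3 or sGC female 3 (FDR = 0.0522 to 0.0815). The male libraries were sequenced more deeply than every female library, so sex cannot be told apart from depth in this comparison.

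Between generations of females, the response differed for 1 of 7 receptors from F1 to F2 (13.8% of 11166 genes), namely HTR7 (F2 minus F1 −1.38, SE 0.42, FDR = 0.0409), which passed in 5 of the 16 fits with 1 animal left out (F1 control 1 or 4, F1 sGC animal 1 or 2, or F2 sGC animal 3) and had FDR = 0.0516 to 0.0804 in the other 11. From F1 to F3 it differed for 0 of 7 (0.0981% of 11212 genes; unadjusted p under 0.05 for 0 of 7, against 15.8% of genes), also by the likelihood ratio test and DESeq2. From F2 to F3 it differed for 0 of 7 (0.018% of 11140 genes), with an unadjusted p under 0.05 for HTR1B, HTR4 and HTR7 (11.5% of genes). Here the F3 minus F2 differences were −1.04 for HTR1B (SE 0.23, FDR = 0.104), −1.25 for HTR4 (SE 0.38, FDR = 0.246) and 0.98 for HTR7 (SE 0.25, FDR = 0.138), and the likelihood ratio test and DESeq2 called HTR1B and HTR7. The 3 comparisons that start from F1 females share those 8 animals, so they are not independent of each other.

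Of 8 other serotonin receptor symbols looked up, HTR1E and HTR6 were listed in all 4 tables. HTR6, a Gs-coupled receptor abundant in the striatum, fell by 0.83 in F1 females (SE 0.24, FDR = 0.0477), from 22.9, 12.1, 12.6 and 15.7 CPM in the controls to 9.63, 10.4, 5.82 and 9.73 CPM after sGC. Without controls 1 and 4 the difference was −0.45 (FDR = 0.199), and leaving out any 1 animal other than control 2 gave FDR = 0.0614 to 0.0949. In F3 females HTR6 was 10.6 to 12.6 against 6.23 to 9.29 CPM, without overlap (−0.53, SE 0.13, FDR = 0.0765), and passed by the likelihood ratio test (FDR = 0.00897) and DESeq2 (FDR = 0.0163). HTR1E, a Gi/o-coupled receptor, had 0.951 to 3.58 CPM over all animals and passed in no table.

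Some receptors varied together over the 35 animals. After the mean of each of the 8 groups had been subtracted from log2 CPM, 10 of 36 receptor pairs (HTR1E and HTR6 included) were related at a Benjamini-Hochberg adjusted p under 0.05 over 162 relations. The share of other gene pairs related at this threshold was not computed, so the count cannot be set against genes in general. All p-values here come from 100000 permutations of animals within groups. HTR5A and HTR7 rose and fell together from animal to animal (Pearson r = 0.76, p = 5e-05, adjusted p = 0.0013, Spearman rho = 0.61, p = 0.00076, adjusted p = 0.0091). HTR1A ran opposite to HTR7 (r = −0.74, p = 6e-05, adjusted p = 0.0013, rho = −0.62, p = 0.001, adjusted p = 0.0094). HTR4 went with HTR1B (r = 0.74, p = 7e-05, adjusted p = 0.0013, rho = 0.69, p = 0.00015, adjusted p = 0.0027) and with HTR2A (r = 0.71, p = 0.00012, adjusted p = 0.0018, rho = 0.68, p = 0.00028, adjusted p = 0.0045). HTR1A went with HTR2C (r = 0.61, p = 0.00053, adjusted p = 0.0056, rho = 0.62, p = 0.00078, adjusted p = 0.0091). Without the 2 animals farthest from the median of HTR7, HTR7, HTR4, HTR4 and HTR2C, in this order, these r were 0.63, −0.65, 0.73, 0.65 and 0.58. Within the 24 females they were 0.82, −0.77, 0.81, 0.76 and 0.73, and within the 11 males 0.45, −0.57, 0.37, 0.23 and 0.28. The same library and its depth enter both measures of each pair.

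**Figure D3:**
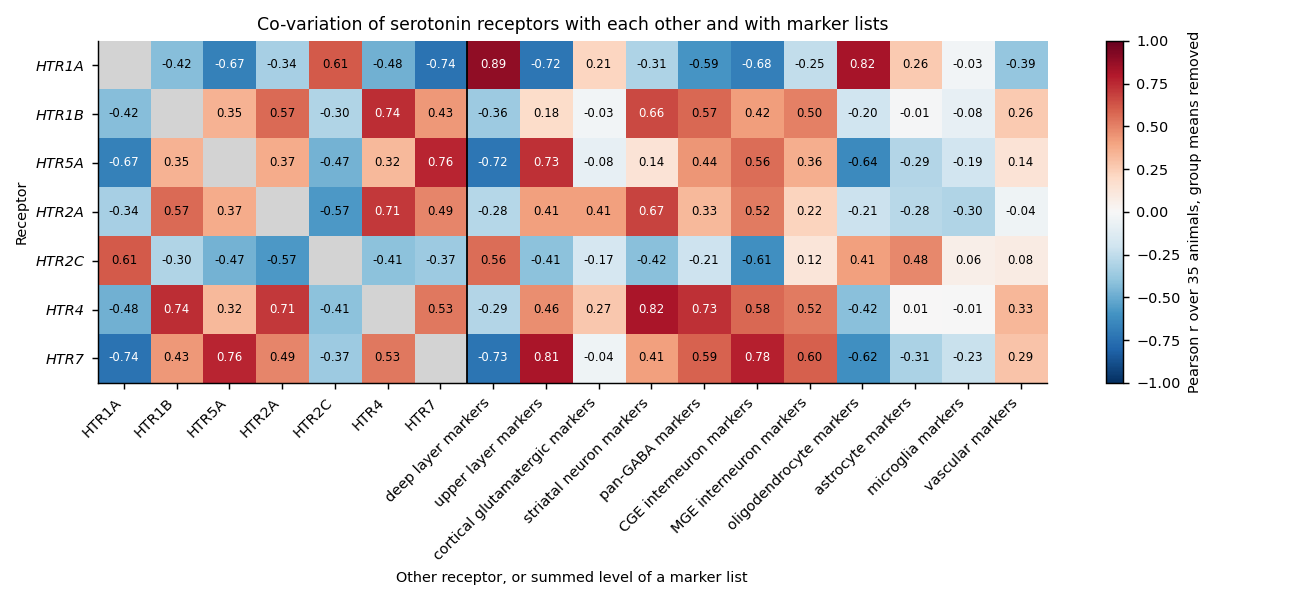
Pearson r over 35 animals, group means removed, between each receptor (rows) and the other receptors or the summed level of marker lists (columns). Red is positive, blue negative and grey the same gene. HTR1A is positive with deep layer and oligodendrocyte markers and negative with upper layer markers, where HTR5A and HTR7 have the opposite signs.

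Each receptor was set beside the summed level of 14 marker lists, and 27 of these 126 relations passed the same adjusted threshold. The share of other genes so related to these lists was not computed. HTR1A followed the markers of deep cortical layers (8 of 10 listed; r = 0.89, p = 1e-05, adjusted p = 0.00054, rho = 0.89, p = 1e-05, adjusted p = 0.00081), where 1e-05 is the smallest p these permutations can give. The relation held in the females (r = 0.90) and the males (r = 0.81), and without the 2 animals farthest in the markers (r = 0.86). HTR1A also followed the oligodendrocyte markers (r = 0.82, p = 1e-05, adjusted p = 0.00054, rho = 0.80, p = 1e-05, adjusted p = 0.00081, 0.83 without 2 animals). HTR7 followed the upper layer markers (r = 0.81, p = 1e-05, adjusted p = 0.00054, rho = 0.79, p = 2e-05, adjusted p = 0.0011), with r = 0.80 in females, 0.90 in males and 0.81 without 2 animals. Within tables this r was 0.85 in F1, 0.33 in F2 and 0.96 in F3 females. HTR5A followed the upper layer markers too (r = 0.73, p = 4e-05, adjusted p = 0.0013, rho = 0.70, p = 6e-05, adjusted p = 0.0023), with r = 0.82 in females, 0.41 in males and 0.79 without 2 animals. HTR4 followed the striatal neuron markers (r = 0.82, p = 7e-05, adjusted p = 0.0013, rho = 0.73, p = 0.00012, adjusted p = 0.0024, 0.75 without 2 animals), with r = 0.87 in the females and −0.22 in the males. Within the F1, F2 and F3 females this r was 0.86, 0.87 and 0.90. The striatal sum was low in every F2 female (167 to 286 CPM) as well as in every F1 male (167 to 205 CPM). BCL11B and FOXP2 of the deep layer list are also expressed by striatal neurons.

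**Figure D4:**
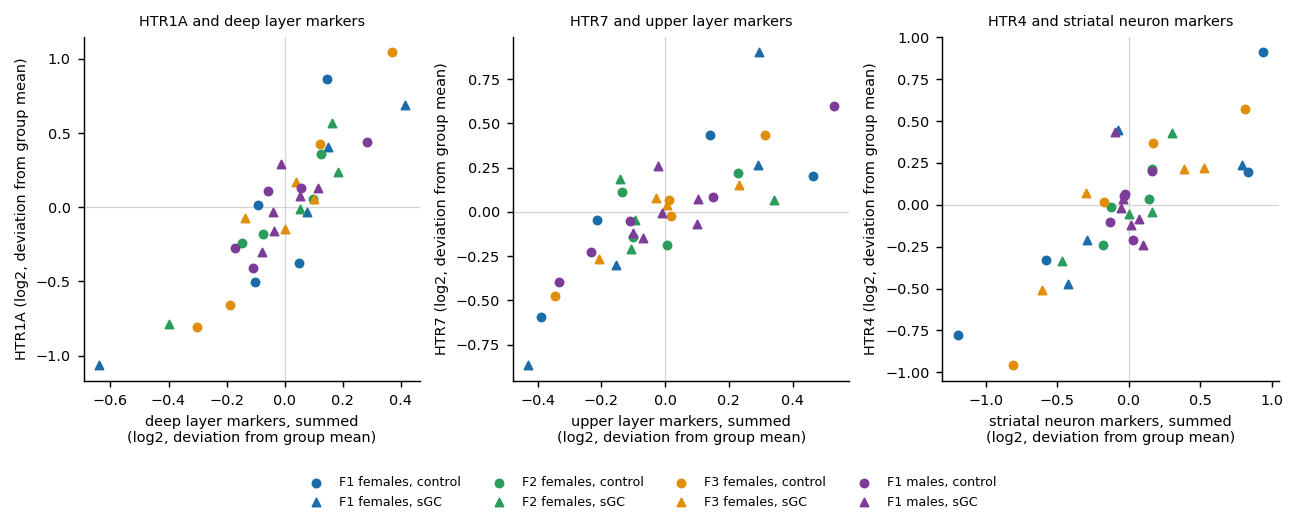
Deviation from the group mean (log2) of HTR1A, HTR7 and HTR4 (y axes) against that of the summed deep layer, upper layer and striatal neuron markers (x axes), 1 point for each of 35 animals, coloured by table and shaped by group. The points rise along the axis in all 3 panels, with r of 0.89, 0.81 and 0.82, and the F1 males (purple) sit near 0 on the striatal axis.

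By a rule set for every receptor, the genes with the most similar profile over the animals (up to 3 each) were looked up among 10724 others, with no test. For HTR1A these were PPFIA4 (r = 0.91), TLE4 (0.89), a marker of deep cortical layers, and KIAA1217 (0.89). HTR1B was closest to SORCS1 (0.84), SYT2 (0.82) and ACE (0.80), and HTR5A to LRFN5 (0.84), FRZB (0.78) and PRR16 (0.78). The Gq/11-coupled receptors were nearest to ITPR1 (0.91) and KCNV1 (0.88) for HTR2A, where ITPR1 encodes the receptor for the inositol trisphosphate that phospholipase C makes, and to EPHA10 (0.82), TERF2IP (0.79) and ARMCX2 (0.78) for HTR2C. HTR4 was closest to SV2C (0.92), SLC32A1 (0.87), the vesicular GABA transporter, and LPL (0.86). HTR7 was closest to RIMS3 (0.91), SLIT2 (0.90) and ANKRD34C (0.90). Spearman's rho for these pairs was 0.74 to 0.92, and r without the 2 animals farthest from the receptor's median was 0.70 to 0.91.

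The machinery around the receptors was followed in lists of genes. Among genes of serotonin synthesis, transport and breakdown, 13 were looked up and 7 to 10 were tested per table. Only SLC29A4, which encodes the plasma membrane monoamine transporter, passed in any table, as 1 of 7 genes tested in F1 females. In these animals 16.5% of all genes passed. SLC29A4 fell by 0.76 there (SE 0.21, FDR = 0.0389), from 8.98 ± 0.86 to 5.28 ± 1.60 CPM (SD, n = 4 each). Its estimates in the F2 females (−0.43, FDR = 0.162), F3 females (−0.62, FDR = 0.186) and F1 males (−0.40, FDR = 0.214) were also negative. TPH2, the rate-limiting enzyme of serotonin synthesis in the brain and singled out here after its values were seen, averaged 1.31 CPM in F2 control and 0.558 CPM in F2 sGC females (−1.19, FDR = 0.0689), and MAOA and MAOB, which break serotonin down, passed in no table.

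Of the Gi/o proteins and GIRK channels, 9 were looked up and 7 tested in each table. In F1 females 5 of 7 rose and 0 fell, where 9.21% of all genes rose and 7.33% fell. KCNJ3, a GIRK channel subunit, rose by 1.07 (SE 0.13, FDR = 0.0039), from 48.5 ± 7.27 to 102 ± 15.8 CPM. GNAI1 rose by 0.44 (SE 0.06, FDR = 0.00564), GNAZ by 0.26 (SE 0.04, FDR = 0.00738) and KCNJ9, a second GIRK subunit, by 0.46 (SE 0.10, FDR = 0.0214). The list's median was 0.44 in F1 females, 0.01 in F2 females, 0.22 in F3 females and −0.06 in F1 males. In the last 3 of these, 0 of 7 passed by the quasi-likelihood test (0.278%, 1.34% and 9.22% of all genes), and 1, 5 and 1 of 7 had an unadjusted p under 0.05. Over all genes the unadjusted share was 16.1% in F2 and 17.3% in F3 females, and that of the F1 males is not reported here. These rises stood beside the higher glutamatergic and lower striatal markers of the F1 sGC females, and the part of that shift was not tested.

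For the Gq/11 proteins and phospholipase C beta, 2 of 10 genes rose and 2 fell in F1 females, where 9.21% of all genes rose and 7.33% fell. PRKCB (0.41, FDR = 0.0144) and PLCB1 (0.40, FDR = 0.0267), the phospholipase isoform common in cortical neurons, rose, and PLCB3 (−0.33, FDR = 0.0299) fell. Of the 15 tested genes of Gs proteins and cyclic AMP, 3 rose and 2 fell in F1 females, against the same shares of all genes. PRKAR1B (0.43, FDR = 0.0059) and ADCY2 (0.68, FDR = 0.00721) rose, and ADCY5 (−1.10, SE 0.22, FDR = 0.015), the main adenylyl cyclase of the striatum, fell from 370 ± 117 to 172 ± 30.1 CPM. ADCY2 also rose in F3 females (0.41, FDR = 0.0216), where 2 of 15 passed (1.34% of all genes), and PRKACB, a catalytic subunit of protein kinase A, fell by 0.24 in F1 males (FDR = 0.0189), where 2 of 15 fell (3.48% of all genes). In the F2 females 0 genes of these lists passed by the quasi-likelihood test, where the unadjusted p was under 0.05 for 3 of 11 genes of the Gq/11 list and 4 of 15 of the Gs list, against 16.1% of all genes.

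Among 21 tested partners, regulators and editing enzymes of the receptors, 5 rose and 2 fell in F1 females, 1 rose in F3 females and 4 fell in F1 males. Over all genes, 9.21% rose and 7.33% fell in F1 females, 1.34% passed in either direction in F3 females and 3.48% fell in F1 males. RGS7, which speeds the shut-off of Gi/o signalling, rose by 0.40 in F1 females (FDR = 0.0162) and fell by 0.23 in F1 males (FDR = 0.00318). GRK2 (0.37, FDR = 0.00432), a kinase that desensitises receptors, and MPDZ (0.28, FDR = 0.0161), a scaffold that binds the HTR2C protein, rose in F1 females, while RGS20 fell (−0.56, FDR = 0.0177). The F1 female differences of the Gq/11, Gs and partner lists stood beside the same marker shift, with a mean striatal sum of 436 CPM after sGC against 1846 CPM in the control group and a mean glutamatergic sum of 2108 against 516 CPM, and its part in them was not tested.

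**Figure D5:**
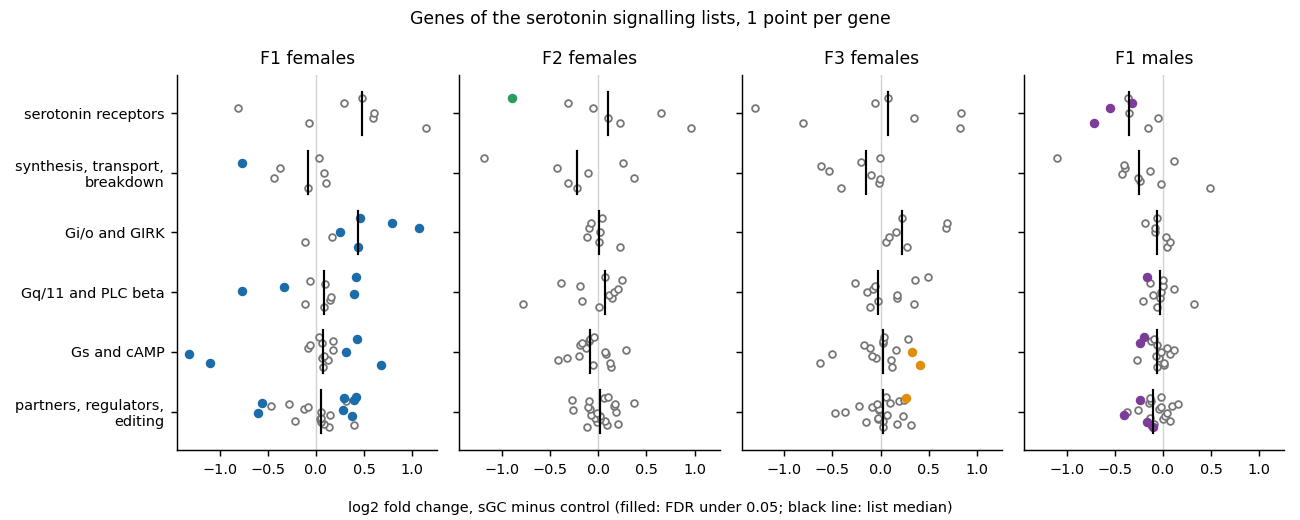
Log2 fold change of sGC minus control (x axis) for each gene of the serotonin receptor list and 5 signalling lists (y axis) in the 4 tables. Filled points passed an FDR of 0.05 and black lines are list medians. The Gi/o and GIRK list has 5 filled points, all right of 0, in F1 females and none in the other tables.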

How the data were processed

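Gene counts were deposited by the authors as 4 tables, 1 each for F1, F2 and F3 females and F1 males, and TopHat2 and edgeR are named in the submitters' processing notes. The genome build, annotation and counter are not given in the sources used here. Within each table, genes were filtered (edgeR filterByExpr, minimum count 10, minimum total 15), TMM-normalised and tested with edgeR's quasi-likelihood test (edgeR 4.0.16, R 4.3.3), with Benjamini-Hochberg FDR over all genes tested and a threshold of 0.05. The study used edgeR's likelihood ratio test, which was run as an alternative beside DESeq2 1.42.0, other normalisations, filters and fits. SE was the log2 fold change divided by the square root of F. Differences in response between tables were contrasts of group means fitted jointly over the genes shared by both tables. Levels are CPM, where 1 read was worth 0.0322 to 0.0783 CPM. Relations used log2 CPM (prior count 2).

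The members and gene lists were chosen with earlier results of these data known. All listed receptors are named, as are up to 4 genes per pathway list with the smallest FDR under 0.05, and the 3 nearest profiles of each receptor. Some genes that this rule names are not reported here. The tests were tried on simulated counts first. Replicate numbers do not mark shared litters in the labels and gave same-number correlations of −0.33 to 0.34, so they were not used as pairs.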

Additional observations from a re-analysis of the deposited data

Results flagged for a closer look

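Over 74 receptor and group combinations of 4 to 6 animals, 6 held 1 animal far from the rest by Dixon's criterion, where chance gives about 1 in 20. In F1 male sGC animal 6, HTR2C was 205 CPM (the other 5 had 70.2 to 112), HTR4 was 3.98 CPM (the others 2.47 to 2.99) and HTR1E was 2.08 CPM (the others 2.75 to 3.12). HTR5A was 7.31 CPM in F1 male sGC animal 1 (the others 6.01 to 6.32). HTR1E was 1.65 CPM in F1 female sGC animal 2 (the others 3.32 to 3.58), and HTR6 was 5.82 CPM in F1 female sGC animal 3 (the others 9.63 to 10.4).

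Of 36 tests of a difference in response over 9 receptors and 4 pairs of tables, 4 passed. The F1 male minus F1 female difference in log2 fold change was −1.31 for HTR1A, −0.64 for HTR2A and −0.62 for HTR5A, and the F2 minus F1 female difference was −1.38 for HTR7.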

How the results depend on the processing

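The number of the 7 receptors past the threshold moved with the test. It was 2 by the likelihood ratio test, 3 by DESeq2 and 3 in a single fit of all 8 groups for F1 females (0 as reported), and 3, 2 and 0 for F2 females (1 as reported). For F3 females it was 2, 2 and 2 (0 as reported), and for F1 males 1 in the single fit (3 as reported). For the difference in response between F2 and F3 females, the likelihood ratio test and DESeq2 gave 2 each (0 as reported). The shares of all genes called in these other fits are not reported here, and the cause was not tested. Leaving out 1 animal gave 0 to 1 (F1 females), 0 to 3 (F2 females), 0 to 4 (F3 females) and 1 to 4 (F1 males), and for differences in response 1 to 5 (F1 females and males), 0 to 1 (F1 and F2), 0 to 0 (F1 and F3) and 0 to 2 (F2 and F3).

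Blocking on the replicate number gave 0, 1, 0 and 3 receptors in the F1, F2 and F3 females and F1 males, and 4, 1, 0 and 0 for the differences in response in the order above. In every fit with F1 males, the block also left out sGC male 6, because no control male carries that number. HTR5A in F1 males lost its call in this fit (FDR = 0.123) and HTR2C gained one (−0.59, FDR = 0.0383). Leaving out sGC male 6 without a block gave −0.61 for HTR2C (FDR = 0.0282), so the part of the block in that call cannot be told apart. The block turned the HTR1A difference between F2 and F3 females to 0.069 and HTR1E in F3 females to −0.042. HTR1E in F3 females was −0.00075 by DESeq2 and −0.024 with upper-quartile scaling.

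With F1 female controls 1 and 4 left out, a choice made after seeing the data, 1 receptor passed in F1 females, HTR1B turned to 0.31, and the differences in response turned to −0.43 for HTR4 (F1 males), 0.20 for HTR1A and −0.090 for HTR1B (F2), and 0.068 for HTR1A and −0.076 for HTR6 (F3). Without the filter on low counts HTR3A had −1.60 (FDR = 0.125).

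Leaving out 1 animal turned the sign of small estimates. In F1 females HTR1B spanned −0.30 to 0.12, and in F1 males HTR2A spanned −0.11 to 0.0041. In F2 females HTR2A spanned −0.020 to 0.23, HTR4 −0.23 to 0.045 and HTR6 −0.10 to 0.032, and in F3 females HTR1E −0.20 to 0.17, HTR5A −0.14 to 0.052 and HTR7 −0.066 to 0.25. Of the differences in response, HTR4 spanned −0.14 to 0.47 (F1 females and males). HTR1A spanned −0.57 to 0.062 and HTR2C −0.15 to 0.20 (F1 and F2), −0.71 to 0.13 and −0.00048 to 0.57 (F1 and F3), and −0.36 to 0.33 and −0.019 to 0.57 (F2 and F3). For single receptors, 824 values with 1 animal left out and 563 under other settings kept their direction and side of the threshold, and 20 and 32 passed it newly, 42 and 7 lost it. Groups of 4 to 6 animals, and 39 to 467 counts per animal for HTR4 and HTR7, limit the precision.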
